A study of Mus musculus with 13 samples.

Results

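The CDK inhibitors are the 7 genes Cdkn2a, Cdkn2b, Cdkn2c and Cdkn2d of the Ink4 family and Cdkn1a, Cdkn1b and Cdkn1c of the Cip/Kip family. They were taken by symbol from the deposited tables of gene counts and joined by Ensembl identifier, and all 7 were among the 21420 genes listed in both tables. The 13 RNA-seq libraries came from mouse small intestine. Crypts are the epithelial pockets that hold the stem cells and Paneth cells, and they were taken from 12-week-old mice of a C57BL/6-FVB mixed background after 6 weeks of beta-naphthoflavone, begun at 6 weeks of age. The crypt groups were Eed-/- (Eed KO, n = 3), Ezh2-/- (Ezh2 KO, n = 3) and wild type (WT, n = 3). Organoids are epithelial cultures grown from crypts, induced with the same compound for 10 days, and were Eed-/- on C57BL/6-FVB (Eed KO, n = 2) or WT on FVB (n = 2). Every group thus received the inducer. It switches on AhCre, a Cre recombinase under an aryl hydrocarbon response promoter that deletes floxed alleles in the epithelium. AhCre is named for the organoids, WT included, and for the crypts of sequencing run 440, and not for the WT crypts of run 385. Libraries are named by run and title number, as in 385_1.

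Cyclin-dependent kinases (CDKs) drive the cell cycle. Ink4 proteins bind CDK4 and CDK6 and keep them from D-type cyclins, so that the RB protein stays active and E2F target genes stay off. Cip/Kip proteins bind whole cyclin and CDK complexes, mainly those of CDK2. Cdkn2a encodes p16Ink4a and, from another first exon and reading frame, p19Arf, which blocks Mdm2 and so stabilizes p53. Cdkn1a, encoding p21, is the best known target of p53. The Cdkn2a and Cdkn2b locus is a classic target of Polycomb repressive complex 2 (PRC2), which methylates lysine 27 of histone H3. Eed is a core subunit of PRC2 and Ezh2 is 1 of its alternative methyltransferases.

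Promoter sequence is shown for the members whose start regions differ most in make-up and for the pair of neighbours at the Ink4 locus. Each window holds the 250 bases before a transcript start (RefSeq, GRCm38.p6, 5′ to 3′ on the gene's strand). CpG dinucleotides are in capitals in the first 3, since CpG-rich starts are the typical sites of PRC2 binding in mammals.
Cdkn2a, first exon of p19Arf, chr4:89294620-89294869, minus strand: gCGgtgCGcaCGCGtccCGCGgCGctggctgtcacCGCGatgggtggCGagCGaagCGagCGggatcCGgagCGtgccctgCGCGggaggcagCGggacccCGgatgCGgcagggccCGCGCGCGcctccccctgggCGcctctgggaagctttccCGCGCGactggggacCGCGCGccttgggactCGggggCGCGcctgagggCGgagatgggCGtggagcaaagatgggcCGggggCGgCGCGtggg
Cdkn2a, first exon of p16Ink4a, chr4:89282193-89282442, minus strand: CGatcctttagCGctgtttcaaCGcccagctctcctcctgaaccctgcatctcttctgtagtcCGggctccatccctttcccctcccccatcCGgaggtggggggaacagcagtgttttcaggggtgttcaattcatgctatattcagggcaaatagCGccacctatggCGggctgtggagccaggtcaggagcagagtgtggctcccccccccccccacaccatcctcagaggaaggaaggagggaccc
Cdkn2b, chr4:89311033-89311282, minus strand: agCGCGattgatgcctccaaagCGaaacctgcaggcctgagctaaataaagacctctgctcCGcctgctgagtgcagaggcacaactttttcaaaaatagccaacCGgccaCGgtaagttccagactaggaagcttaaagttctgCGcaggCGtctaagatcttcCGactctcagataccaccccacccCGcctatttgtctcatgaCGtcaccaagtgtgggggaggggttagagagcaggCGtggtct
Cdkn1a, upstream start, chr17:29090729-29090978, plus strand, with the motif match below in capitals: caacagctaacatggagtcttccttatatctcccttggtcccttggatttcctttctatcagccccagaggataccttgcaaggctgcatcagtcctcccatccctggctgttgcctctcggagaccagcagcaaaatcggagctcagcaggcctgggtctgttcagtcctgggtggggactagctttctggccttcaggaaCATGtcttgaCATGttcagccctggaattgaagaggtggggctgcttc
The p19Arf window held 40 CpG, more than 98.7% of 32851 windows of the same length, against a median of 6 over all. The p16Ink4a window held 7 (more than 53.7%) and the Cdkn2b window 12 (more than 66.5%). Among the other members, the Cdkn2c windows held 29 and 6, the Cdkn1b window 28, the Cdkn2d window 16 and the downstream Cdkn1a window 19. The core of a p53 half-site pair, searched as CATGNNNNNNCATG on both strands, occurred once among the 9 windows of 6 members. It lay in the upstream Cdkn1a window, whose CpG count was 2, and ended 34 bases before that start. The same letters occurred in 161 of the 32851 windows (0.49%). A match is a match of letters and no evidence of binding.

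Library depth ran from 11421666 to 18300644 counts. Levels below are CPM, a library's counts scaled to a common effective size, and fold changes are from edgeR's quasi-likelihood test on the counts with run as a term, adjusted over all genes by the Benjamini-Hochberg method (threshold 0.05). The fold change is on the log2 scale and its error is an SE, so a fold can differ from a ratio of 2 mean levels. Nothing in the labels says that each library is its own animal or culture, and p-values rest on the spread between libraries, which may be technical. The deletion check held in its labelled direction: Eed was at 15.8 to 24.6 CPM in Eed KO crypts against 53.3, 60.1 and 50.006 in WT crypts, and at 19.3 and 30.5 in Eed KO organoids against 73.3 and 62.3 in WT organoids. Ezh2 was at 17.8 to 21.9 CPM in Ezh2 KO crypts against 91.0, 94.97 and 72.1 in WT crypts. The mitochondrial share of counts was 3.71% to 18.0% in Eed KO crypts, lowest in 440_1, against 8.66% to 14.5% in WT crypts. By Xist and Ddx3y, a male pattern was seen in the WT crypts of run 385 and in Eed KO organoids, and a female one in the rest. In organoids, sex pattern and strain cannot be told apart from genotype. In crypts, Eed KO and WT differ in sex pattern in run 385 and share it in run 440. All Ezh2 KO libraries are of run 440 and of female pattern, and 440_1 is the WT library of that run. Levels, unlike fold changes, are not adjusted for run, so their order in Ezh2 KO and WT crypts mixes in run and sex pattern. Where groups are said not to overlap, this describes their levels, and the share of all genes without overlap is not given. Epithelial markers (Epcam, Cdh1, Krt8, Krt18, Vil1, Cdx1, Cdx2) were present in all groups. In Eed KO crypts 3 of the 7, Epcam (-0.71 ± 0.14), Cdx1 (-1.89 ± 0.19) and Cdx2 (-2.005 ± 0.34), were called lower, and the 7 summed to 3752, 3350 and 6355 CPM against 5993, 5239 and 6483 CPM in WT crypts. Markers of immune cells summed to 299.3 to 537 CPM in Eed KO crypts against 535.9 to 1432 CPM in WT crypts. Of these 8 genes, Laptm5 (1.35 ± 0.23) and Tyrobp (1.76 ± 0.54) were called higher and Cd74 (-1.38 ± 0.31) lower. Of all genes 13.4% were called higher and 10.6% lower. The median log2 fold change of the 8 was 0.81, against the direction of the sum. In organoids the immune sum was at most 1.68 CPM.

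Loss of Eed in crypts was accompanied by higher Cdkn2a and Cdkn1a and by lower Cdkn2c and Cdkn1b. Thus 2 of 7 members were called higher and 2 of 7 lower, where 13.4% and 10.6% of the 14406 genes tested were. In Eed KO organoids Cdkn2a and Cdkn1a were higher and Cdkn1b was lower, 2 and 1 of 7, against 13.5% and 4.63% of 12958 genes. In Ezh2 KO crypts no member was called in either direction, and neither were most genes (0% higher, 0.0208% lower). The median log2 fold change of the 7 was 0.31 in Eed KO crypts and -0.13 in Eed KO organoids, against -0.04 and -0.0047 over all genes tested. The members therefore moved in opposite directions rather than as a family.

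**Figure D1:**
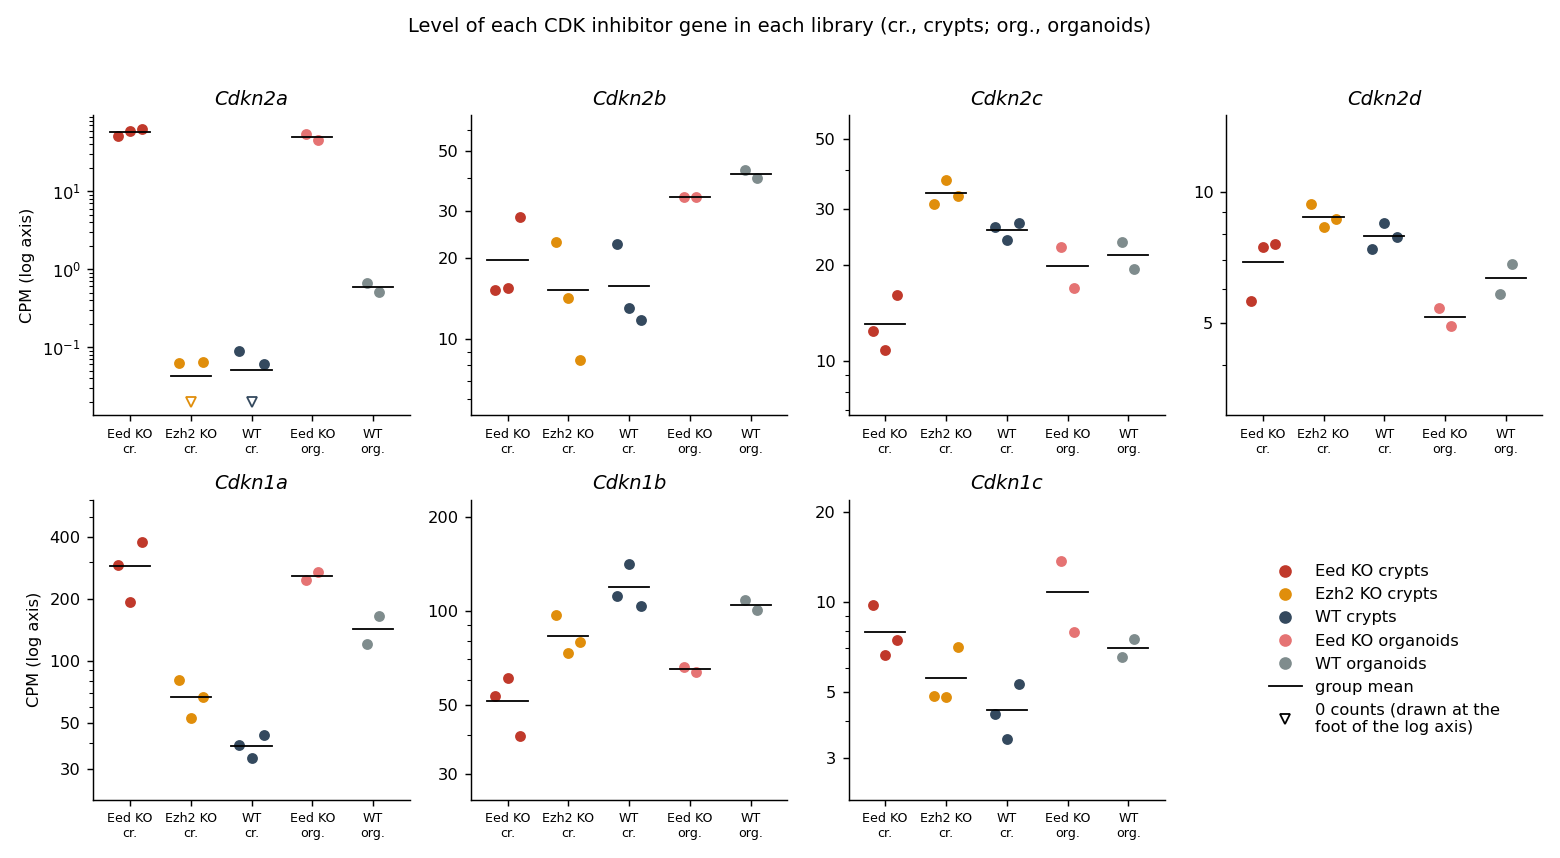
Level of the 7 CDK inhibitor genes in every library, in CPM on a log axis that differs between panels. Points are libraries, bars are group means and open triangles are libraries with 0 counts. Cdkn2a separates all 5 Eed KO libraries (46.2 to 63.1 CPM) from the other 8, and Cdkn2b shows no such split.

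Cdkn2a (ENSMUSG00000044303, chromosome 4, 89274471 to 89294653, GRCm38) was close to absent without Eed loss and well expressed with it. The Eed KO crypts had 671, 717 and 1071 counts, or 51.8, 59.5 and 63.1 CPM, the Ezh2 KO crypts had 1, 0 and 1 counts, and the WT crypts had 1, 0 and 1 counts. The Eed KO organoids had 681 and 573 counts, or 54.4 and 46.2 CPM, against 9 and 6 counts, or 0.67 and 0.51 CPM, in WT organoids. No Eed KO library overlapped any other. In the Eed KO libraries the gene stood above 93.4% to 96.0% of protein-coding genes by level per exon length, against at most 21.6% in WT crypts. The counts cannot separate p16Ink4a from p19Arf transcripts, which share their later exons.

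Over the 3 WT crypts Cdkn2a had 2 counts in all, so the ratio of Eed KO to WT crypts, 1127, had a wide 95% counting interval of 312 to 9312. This and the other intervals cover counting error only. The test gave adjusted p = 1.26e-05. Within run 385 alone the log2 fold change was 9.96 ± 0.45, and in run 440, where both libraries have a female pattern, it was 9.86 ± 0.70. Against Ezh2 KO crypts, which also had 2 counts in all, the ratio was 1385 (383 to 11443, adjusted p = 1.14e-05). Between Ezh2 KO and WT crypts no fold is given, since both were under the floor of 3 counts: any difference was not detectable at this depth. In organoids the ratio was 83.9 (50.7 to 150.4, adjusted p = 1.88e-05).

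Cdkn2b (ENSMUSG00000073802, chromosome 4, 89306289 to 89311032), encoding p15Ink4b, lies 11636 bases from Cdkn2a and did not follow it. It was at 15.3, 15.5 and 28.6 CPM in Eed KO crypts, at 23.1, 14.3 and 8.35 in Ezh2 KO crypts and at 22.6, 13.1 and 11.8 in WT crypts. The 3 crypt groups overlapped. The log2 fold change was 0.31 ± 0.43 (adjusted p = 0.657, 95% interval -0.68 to 1.29) for Eed KO and -0.21 ± 0.55 (adjusted p = 0.935) for Ezh2 KO against WT crypts. The Eed KO value was -0.21 in run 385 and 1.30 in run 440, and it was -0.26 without Eed KO 440_1 and -0.19 without WT 440_1. In organoids Cdkn2b was at 34.0 and 33.8 CPM in Eed KO and 42.6 and 39.9 CPM in WT, a log2 fold change of -0.29 ± 0.13 that was not called (adjusted p = 0.182). Its clearest difference was between sources: WT crypts stood below WT organoids by -1.44 ± 0.42 (adjusted p = 0.0253). That call was lost without WT crypts 385_2, WT organoids 385_1 or WT organoids 385_2 (adjusted p = 0.0863, 0.115 and 0.0806).

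Cdkn2c (ENSMUSG00000028551, chromosome 4, 109660876 to 109667189), encoding p18Ink4c, was lower in Eed KO crypts. It was at 12.4, 10.8 and 16.1 CPM there, at 31.3, 37.1 and 33.1 in Ezh2 KO crypts and at 26.3, 24.0 and 27.1 in WT crypts. Eed KO libraries lay below all the others of the crypts, and Ezh2 KO libraries lay above those of WT, in levels not adjusted for run. The log2 fold change of Eed KO against WT crypts was -0.97 ± 0.16 (adjusted p = 0.00264), with -1.12 ± 0.22 in run 385 and -0.73 ± 0.28 in run 440, where it was not called (adjusted p = 0.144). Against Ezh2 KO crypts it was -1.17 ± 0.19 (adjusted p = 0.00444), and Ezh2 KO against WT crypts gave 0.19 ± 0.19 (adjusted p = 0.785). The organoids overlapped, with 22.8 and 16.9 CPM in Eed KO and 23.6 and 19.4 CPM in WT, a fold change of -0.13 ± 0.20 (adjusted p = 0.727).

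Markers of dividing cells (Mki67, Top2a, Ccnb1, Birc5, Mcm2, Mcm5) fell in the same crypts as Cdkn2c. Their summed level was 475.6 to 738 CPM in Eed KO crypts against 1517 to 1864 CPM in WT crypts. Of the 6, 5 were called lower, against 10.6% of all genes. In organoids the sum was 1576 and 1656 CPM in Eed KO and 1708 and 1770 CPM in WT. There 0 of 6 were called, where 13.5% of all genes were higher and 4.63% lower. None of the 6 was at 0 in any group. Markers of crypt base stem cells (Lgr5, Olfm4, Smoc2, Ascl2, Axin2) summed to 692.5 to 1178 CPM in Eed KO crypts against 4352 to 4518 CPM in WT crypts, with Olfm4 (-3.21 ± 0.23), Lgr5 (-1.24 ± 0.17) and Axin2 (-1.01 ± 0.23) called lower. Paneth cell markers (Lyz1, Mmp7, Ang4, Itln1) summed to 9096 to 14845 CPM in Eed KO crypts against 59332 to 75611 CPM in WT crypts, and Lyz1, Ang4 and Itln1 were called lower. In Ezh2 KO crypts they summed to 21653 to 40132 CPM, also below every WT library. There 0 of the 4 were called, where 0% of all genes were higher and 0.0208% lower. In organoids 0 of the 5 stem cell markers were called, and 2 of the 4 Paneth markers were higher, against the same shares of all genes as above (13.5% higher, 4.63% lower). Enterocyte markers summed to 466, 433 and 3555 CPM in Eed KO crypts 385_1, 385_2 and 440_1. The sum was 3265 to 6492 CPM in Ezh2 KO crypts and 881 to 2351 CPM in WT crypts. It was 5102.5 and 6157 CPM in Eed KO organoids and 9854 and 6809 CPM in WT organoids. Of these 8 genes, Krt20 was called lower in Eed KO crypts, against 10.6% of all genes. In WT crypts 6 of the 8 were lower than in WT organoids, against 9.17% of all genes. In bulk RNA, fewer cells of a type and less RNA per cell cannot be told apart. The part of these cell types in the lower Cdkn2c, and in the other differences between groups, was not tested.

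Cdkn2d (ENSMUSG00000096472, chromosome 9, 21288463 to 21291209), encoding p19Ink4d, was called in no comparison. It was at 5.64 to 7.60 CPM in Eed KO crypts, 8.32 to 9.40 in Ezh2 KO crypts and 7.41 to 8.501 in WT crypts. Eed KO organoids had 5.43 and 4.92 CPM and WT organoids 5.85 and 6.85. Fold changes were -0.18 ± 0.21 in Eed KO crypts, 0.08 ± 0.26 in Ezh2 KO crypts and -0.30 ± 0.26 in Eed KO organoids, with adjusted p = 0.578, 0.95 and 0.499. The 95% interval in Eed KO crypts was -0.67 to 0.30. Eed KO and WT crypts overlapped, while the organoid groups, of 2 libraries each, did not.

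Cdkn1a (ENSMUSG00000023067, chromosome 17, 29090979 to 29100722) was called higher in both Eed KO groups, and per exon length it held the largest share of the family there. The Eed KO crypts had 290.7, 192.7 and 376 CPM, the Ezh2 KO crypts 80.7, 52.6 and 67.2, and the WT crypts 39.0, 34.0 and 43.7. Each group lay apart from the next, in the order Eed KO, Ezh2 KO, WT, in levels not adjusted for run. The log2 fold change of Eed KO against WT crypts was 2.87 ± 0.23 (adjusted p = 0.00016), or 2.72 ± 0.25 in run 385 and 3.13 ± 0.34 in run 440. Eed KO stood above Ezh2 KO crypts by 2.39 ± 0.25 (adjusted p = 0.000664). Ezh2 KO against WT crypts was 0.48 ± 0.27 and did not pass the threshold (adjusted p = 0.654, 95% interval -0.13 to 1.08), although the libraries did not overlap.

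In organoids Cdkn1a was at 247.4 and 268 CPM in Eed KO against 121.0 and 166 CPM in WT, with no overlap. The log2 fold change was 0.84 ± 0.17 (adjusted p = 0.0152). It missed the threshold without Eed KO 385_2 (adjusted p = 0.0547) or without WT 385_1 (adjusted p = 0.0718).

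Cdkn1b (ENSMUSG00000003031, chromosome 6, 134920401 to 134925513), encoding p27, moved against Cdkn1a. It was at 53.4, 61.3 and 39.7 CPM in Eed KO crypts, 97.5, 73.3 and 79.7 in Ezh2 KO crypts and 112, 142 and 104 in WT crypts. The order was the reverse of that of Cdkn1a, again with no overlap between neighbouring groups and no adjustment for run. The log2 fold change was -1.21 ± 0.17 for Eed KO against WT crypts (adjusted p = 0.00148), with -1.16 ± 0.20 in run 385 and -1.36 ± 0.28 in run 440. Against Ezh2 KO crypts it was -0.97 ± 0.21 (adjusted p = 0.0153), a call lost without Eed KO 440_1 (-0.92, adjusted p = 0.0782) and without the run term (-0.66, adjusted p = 0.062). Ezh2 KO against WT crypts gave -0.24 ± 0.20 (adjusted p = 0.744). In organoids Eed KO had 66.3 and 63.8 CPM and WT had 109 and 101 CPM, and the fold change was -0.69 ± 0.11 (adjusted p = 0.00652).

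Cdkn1c (ENSMUSG00000037664, chromosome 7, 143458350 to 143461050), an imprinted gene encoding p57, leaned upward in both Eed KO groups without a call. It was at 9.73, 6.64 and 7.48 CPM in Eed KO crypts, 4.82, 4.798 and 7.07 in Ezh2 KO crypts and 4.19, 3.47 and 5.33 in WT crypts. Eed KO and WT crypts did not overlap. The log2 fold change was 0.90 ± 0.29 with adjusted p = 0.0543, just short of the threshold. It passed in 5 of 18 alternative settings, and over all settings the log2 fold change ran from 0.51 to 1.11. The 5 were DESeq2 (adjusted p = 0.0303), a minimum count of 50 (0.0406), run 385 alone (0.0428), and leaving out Eed KO 440_1 (0.0448) or WT 440_1 (0.0353). In run 385 Eed KO and WT crypts differ in sex pattern. In organoids the values were 13.7 and 7.90 CPM in Eed KO and 6.52 and 7.53 CPM in WT, a fold change of 0.61 ± 0.30 (adjusted p = 0.226).

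**Figure D2:**
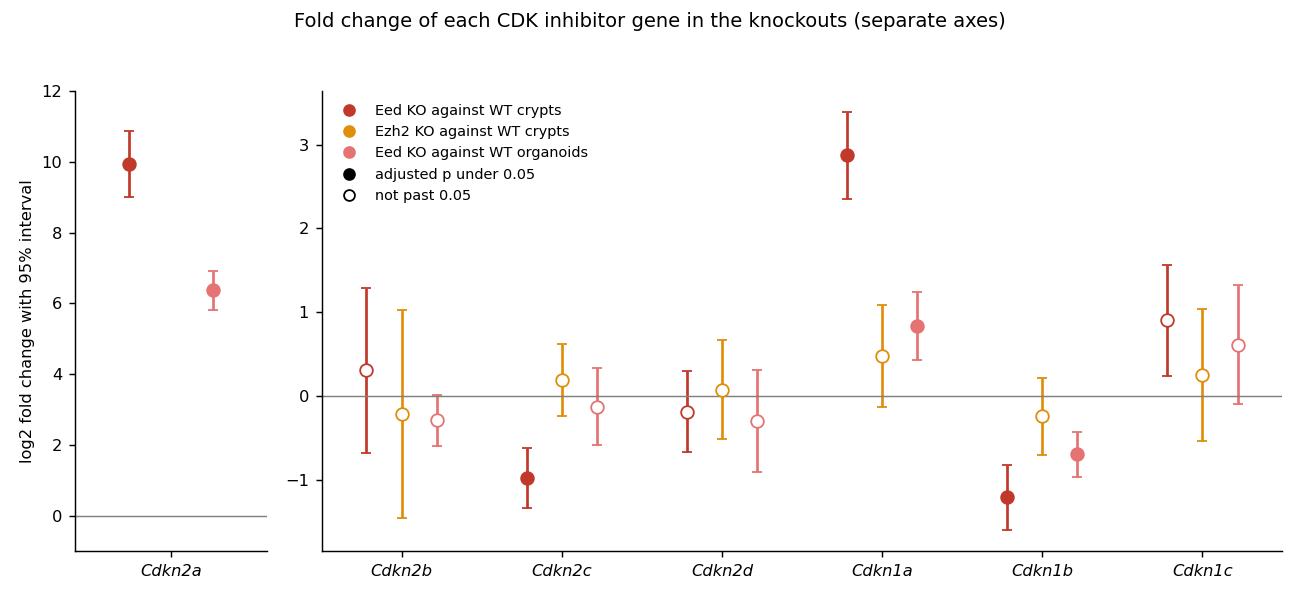
Log2 fold change of each member in the 3 knockout comparisons, with 95% intervals, on separate axes for Cdkn2a and the rest. Filled points had adjusted p under 0.05, and Cdkn2a has no value for Ezh2 KO crypts, where both groups were under 3 counts. Cdkn2a and Cdkn1a lie above 0 and Cdkn1b below 0 in both Eed KO comparisons, while no Ezh2 KO point is filled.

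Read side by side, Eed KO and Ezh2 KO crypts differed in 4 members. Cdkn2a and Cdkn1a were called higher and Cdkn2c and Cdkn1b lower in Eed KO than in Ezh2 KO crypts, 2 of 7 each, where 12% of genes were higher and 8.05% lower. Since the comparisons of Eed KO and of Ezh2 KO with WT share the WT crypts, this direct contrast is the one that bears on the difference. In the Ezh2 KO comparison 1179 of 14406 genes had an unadjusted p under 0.05, and none of the 6 members with a fold change was among them. DESeq2 called 36 genes higher and 34 lower there. Without WT 440_1 edgeR called 254 and 259, but still no member.

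The composition of the family changed with Eed. Per kilobase of exon, the 7 genes summed to 169 ± 31.5 CPM (SD, n = 3) in Eed KO crypts, 69.0 ± 10.2 (n = 3) in Ezh2 KO crypts and 65.4 ± 3.66 (n = 3) in WT crypts. In organoids the sum was 170.1 ± 5.16 (n = 2) in Eed KO and 109.0 ± 5.90 (n = 2) in WT. Cdkn1b took 7.01 ± 2.61% in Eed KO crypts and 40.1 ± 6.14% in WT crypts, where it led. Cdkn1a took 47.0 ± 7.56% in Eed KO crypts and 16.8 ± 2.89% in WT crypts, and Cdkn2a took 29.9 ± 5.19% in Eed KO crypts and 0.065 ± 0.058% in WT crypts. In Ezh2 KO crypts the shares of Cdkn1a and Cdkn1b were nearly equal, at 27.1 ± 3.13% and 26.6 ± 0.88%. The Ink4 genes together reached 63.4 to 85.2 CPM per kilobase in Eed KO crypts against 23.6 to 30.8 in WT crypts, and the Cip/Kip genes 70.9 to 118 against 37.7 to 42.5. In WT organoids Cdkn1a also led, with 36.9 ± 6.18%, ahead of Cdkn2b with 27.3 ± 2.74%. These sums are descriptions with no test of their own.

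**Figure D3:**
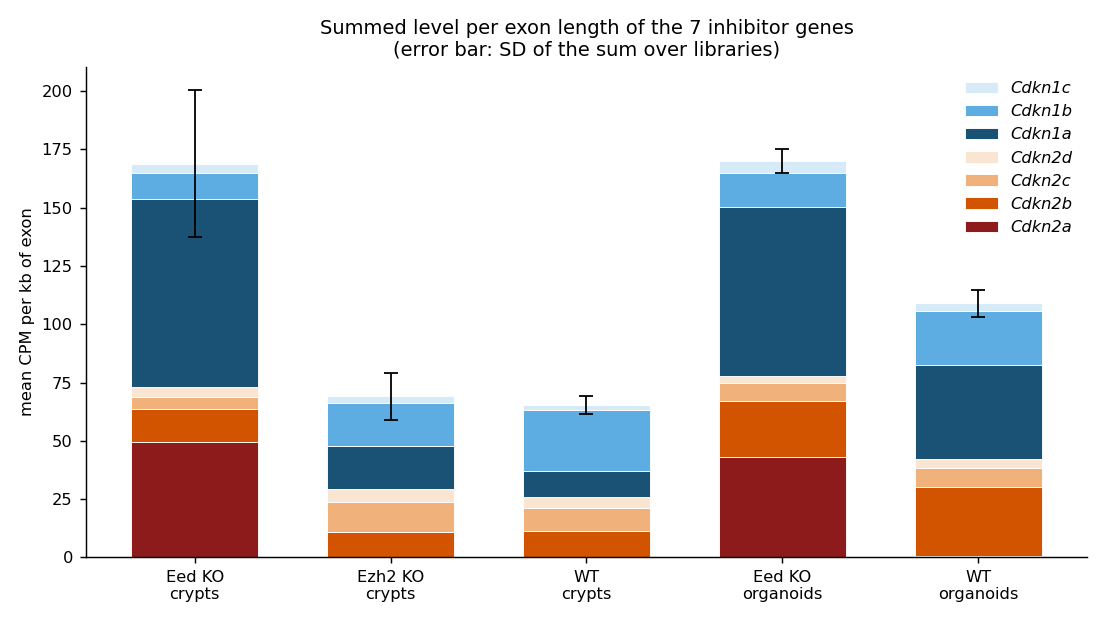
Mean level per kilobase of exon of the 7 genes, stacked by group, in CPM per kb. Error bars are the SD of the summed level over the libraries of a group (n = 3 for crypts, n = 2 for organoids). The sums are 169 and 170.1 in the Eed KO groups and 65.4 to 109.0 in the other 3, and the Cdkn2a layer is visible in the Eed KO groups.

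An interaction term in the fit of the 13 libraries asked whether the Eed effect differed between tissue and culture. The effect on Cdkn2a was larger in crypts than in organoids by 3.56 ± 0.64 on the log2 scale (adjusted p = 0.0137) and that on Cdkn1a by 2.03 ± 0.33 (adjusted p = 0.00808). These were 2 of 7 members with a positive difference, against 1.13% of 14761 genes, and 0 of 7 with a negative one, against 2.99%. The median difference over all genes was -0.14. The Cdkn2a value rests on few counts in WT, 2 in crypts and 15 in organoids, and depends on how the fit treats them. It missed the threshold without WT organoids 385_1 (3.33, adjusted p = 0.0932). For Cdkn2c the difference was -0.86 ± 0.26 (adjusted p = 0.0904), and for Cdkn1b -0.52 ± 0.24 (adjusted p = 0.28).

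The WT levels of the family also differed between sources. In WT crypts against WT organoids 3 members were lower, where 9.17% of genes were lower, and none was higher, where 18.9% were. Those 3 were Cdkn2a, Cdkn2b (above) and Cdkn1a. Cdkn1a differed by -2.04 ± 0.24 (adjusted p = 0.000138), and Cdkn2a had a ratio of 0.087 (95% counting interval 0.0096 to 0.37, adjusted p = 0.00213). Between Eed KO crypts and Eed KO organoids, a contrast added after the values were seen, Cdkn1a differed by -0.01 ± 0.24 (95% interval -0.54 to 0.52) and Cdkn2a by 0.17 ± 0.23 (-0.33 to 0.67). There 0 of 7 members were higher and 1 lower, against 15.6% and 12.3% of genes. The lower one was Cdkn2c, at -0.69 ± 0.19 (adjusted p = 0.0214), and its call was lost without Eed KO crypts 385_1, Eed KO crypts 385_2 or Eed KO organoids 385_1 (adjusted p = 0.0608, 0.0705 and 0.208). Cdkn2b joined it in run 385 alone (-1.11, adjusted p = 0.004) and without Eed KO crypts 440_1 or WT crypts 440_1. The organoids are all of run 385 and 10 days from induction, against 6 weeks in crypts, so source and time cannot be told apart. WT organoids are also of FVB strain and female pattern, against a mixed background and, in run 385, a male pattern in WT crypts. Eed KO organoids have a male pattern and Eed KO crypts a female one. The part of strain and sex pattern in these differences was not tested.

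Across the 5 groups, mean Cdkn2a ran from Eed KO crypts (58.1 CPM) and Eed KO organoids (50.3), which did not differ beyond their spread, to WT organoids (0.59), WT crypts (0.050) and Ezh2 KO crypts (0.042), the last 2 under the floor. Cdkn1a ran from Eed KO crypts (286.5) and Eed KO organoids (258), also within their spread, to WT organoids (143), Ezh2 KO crypts (66.8) and WT crypts (38.9). Cdkn1b was highest in WT crypts (119) and WT organoids (105), which overlapped, then in Ezh2 KO crypts (83.5), Eed KO organoids (65.1) and Eed KO crypts (51.5), the last pair differing by -0.20 ± 0.17 (adjusted p = 0.423). Cdkn2b was highest in WT organoids (41.2) and Eed KO organoids (33.9), and its 3 crypt groups, at 15.2 to 19.8 CPM, overlapped.

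Genes of the p53 arm moved with Cdkn2a and Cdkn1a. Of the 19 genes listed as p53, its regulators and its targets, 12 were higher and 1 lower in Eed KO crypts, with a median log2 fold change of 1.42, where 13.4% and 10.6% of all genes were called and their median was -0.04. In Eed KO organoids 12 were higher and 1 lower, with a median of 1.09, where 13.5% and 4.63% were called and the median was -0.0047. Phlda3, a p53 target that restrains Akt, was at 69.2 ± 8.57 CPM in Eed KO crypts and 1.64 ± 0.49 CPM in WT crypts (SD, n = 3 each), a log2 fold change of 5.42 ± 0.55 (adjusted p = 0.000368). Gdf15, a stress-induced secreted factor, rose by 4.75 ± 0.28, Eda2r, a receptor of the TNF family, by 4.70 ± 0.71, and Plk2, a p53-induced kinase, by 4.53 ± 0.34. Mdm2, the ubiquitin ligase of p53 and itself a target, rose by 0.97 ± 0.19 (adjusted p = 0.00704). Trp53 mRNA, at 106 ± 34.3 CPM in Eed KO crypts and 120.5 ± 2.98 CPM in WT crypts, gave -0.19 ± 0.20 (adjusted p = 0.527). The gene called lower was Sesn1 (-1.51 ± 0.20), which in organoids lost its call without WT 385_1 or either Eed KO library. In run 440 alone 7 were higher and none lower. In Ezh2 KO crypts 0 of 19 were called in either direction, where 0% of all genes were higher and 0.0208% lower.

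In organoids the largest changes of that list were Phlda3 (2.89 ± 0.27), Eda2r (2.45 ± 0.34), Trp53inp1 (2.25 ± 0.23) and Plk2 (1.87 ± 0.18). The effect in crypts exceeded that in organoids for Gdf15 (3.06 ± 0.39, adjusted p = 0.00257), Plk2 (2.65 ± 0.44, adjusted p = 0.00933) and Zmat3 (1.68 ± 0.34, adjusted p = 0.0217). WT crypts stood below WT organoids in 8 of the 19, Gdf15, Plk2 and Zmat3 among them, against 9.17% of all genes. For Gdf15 the levels were 29.7 ± 9.53 CPM in Eed KO crypts and 1.12 ± 0.51 CPM in WT crypts (SD, n = 3 each), and 23.7 ± 6.55 CPM in Eed KO organoids and 7.33 ± 1.14 CPM in WT organoids (n = 2 each). Between Eed KO crypts and Eed KO organoids 0 of the 19 were higher and 1 was lower, against 15.6% and 12.3% of all genes.

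The partners of the inhibitors moved in both directions. Of 19 genes, namely 17 cyclins, CDKs, RB proteins and E2F factors with Cdc25a and Pcna, 3 were higher and 9 lower in Eed KO crypts, where 13.4% and 10.6% of all genes were. The 3 were the D-type cyclins Ccnd2 (2.09 ± 0.28), Ccnd3 (1.26 ± 0.18) and Ccnd1 (1.14 ± 0.20), the partners that Ink4 proteins displace. Ccnd2 was at 1782 ± 280 CPM in Eed KO crypts and 436 ± 151 CPM in WT crypts. Ccna2, the cyclin of S and G2 phase, fell by 1.58 ± 0.13 (adjusted p = 0.00016), the RB relative Rbl1 by 1.39 ± 0.20 and the Ink4 target Cdk6 by 1.07 ± 0.22. Cdk4, the other Ink4 target, was at -0.19 ± 0.13 (adjusted p = 0.342). With same-numbered libraries as a block, 3 were higher and 5 lower, and in run 440 alone 1 and 3.

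In organoids 2 of the 19 were higher, Ccnd2 (1.36 ± 0.15) and Ccnd1 (0.82 ± 0.15), and 4 were lower, against 13.5% and 4.63% of all genes. The lower ones were E2f2, Rb1, Ccna2 and Rbl1, at -0.90 to -0.50. The lower count was 2 without Eed KO organoids 385_1 and 1 without either WT organoid library, and the higher count was 1 without WT organoids 385_1. The difference between crypts and organoids was called for Ccnd3 (1.11 ± 0.27, adjusted p = 0.0429) and Ccna2 (-1.03 ± 0.18, adjusted p = 0.0126). The dividing-cell markers above moved in the same crypts as Ccna2, and their part in it was not tested.

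**Figure D4:**
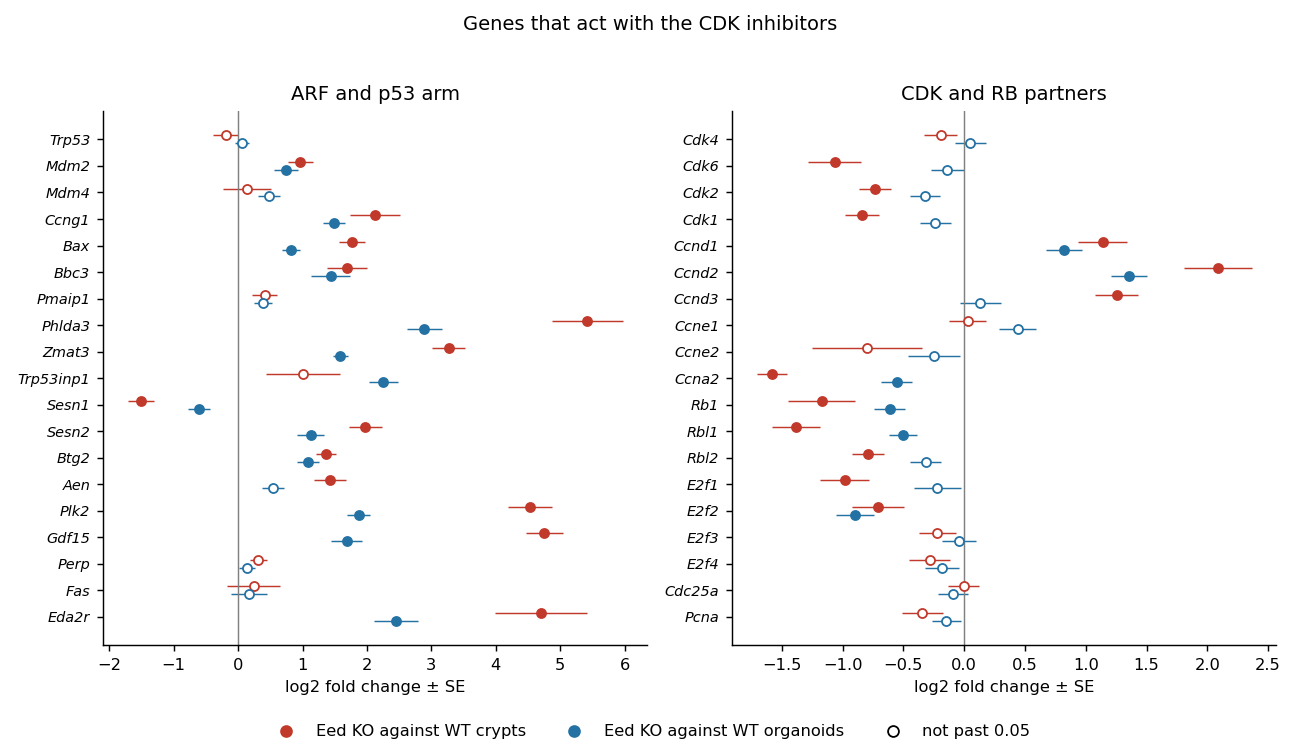
Log2 fold change ± SE of the 19 genes of the p53 arm (left) and the 19 CDK and RB partners (right) in Eed KO against WT crypts and Eed KO against WT organoids. Filled points had adjusted p under 0.05. In each source 12 of 19 p53-arm genes are called higher, and of the partners Ccnd1 and Ccnd2 are higher in both while Ccnd3 is called in crypts.

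Regulators of the Ink4 locus showed no common direction. Of 24 listed, 23 were tested in Eed KO crypts, and 6 were higher and 4, the deleted Eed among them, lower, against 13.4% and 10.6% of all genes. The others called lower were Suz12 (-0.95 ± 0.29), Ezh2 (-0.92 ± 0.14) and Jarid2 (-0.73 ± 0.14). The larger changes were Eed itself, Id1 (1.17 ± 0.16), Bmi1 (1.11 ± 0.35) and Ets1 (1.10 ± 0.16), where Bmi1 is a repressor of the locus, Id1 restrains Ets factors and Ets1 activates p16Ink4a. With the block the counts were 3 and 2, in run 440 alone 1 and 1, and 3 were higher without Eed KO 385_1. In organoids 5 were higher and 3, again with Eed, lower, against 13.5% and 4.63% of all genes, led by Ets1 (2.22 ± 0.24). The 5 became 3 without Eed KO 385_1, 1 without WT 385_1 and 2 without WT 385_2. In Ezh2 KO crypts the 1 call was Ezh2, and Bmi1 gave 1.76 ± 0.41 without a call (adjusted p = 0.551).

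No gene of p27 turnover was called higher. Of 12 genes of p27 and p57 turnover and transcription, 0 were higher and 3 lower in Eed KO crypts, where 13.4% and 10.6% of all genes were. The 3 were Skp2 (-0.68 ± 0.15) and Cks1b (-0.65 ± 0.14), parts of the ligase that degrades p27, and Rnf123 (-0.56 ± 0.17), part of another. None was called with the block or in run 440 alone, and 1 was called without WT 385_2 or without the run term. In organoids, where Cdkn1b was also lower, 0 of 12 were called in either direction. The dividing-cell markers fell in the same crypts, and their part in these changes was not tested.

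Of 13 genes that feed into Cdkn2b and Cdkn1a through TGF-beta and Kruppel-like factors, 12 were tested in crypts, with 2 higher and 3 lower. Of all genes 13.4% were higher, a share near that of the list, and 10.6% lower. The higher ones were the receptor Tgfbr2 (1.77 ± 0.24) and the ligand Tgfb1 (1.30 ± 0.35), and the lower ones Klf6, Smad4 and Sp1 at -0.99 to -0.70. With the block 1 was higher and 1 lower, in run 440 alone 1 and none, and without Eed KO 385_1 1 was higher. In organoids 4 of 12 were higher, Tgfb2 (66 counts against 2 in WT organoids), Tgfb1, Klf4 (1.18 ± 0.20) and Tgfbr2, against 13.5% of all genes, and none was lower. Tgfb2 passed the filter only through Eed KO, where it was high. Cdkn2b was called in neither source.

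Of 19 genes associated with senescence, most of them secreted, 18 had rows and 10 passed the filter in crypts, so the counts describe those that passed. Against 13.4% of all genes higher and 10.6% lower, 3 of the 10 were higher, the growth factor Areg (5.24 ± 0.40), the chemokine Ccl20 (3.19 ± 0.63) and Vegfa (1.01 ± 0.22). Lmnb1, the lamin that senescent cells lose, was lower (-1.21 ± 0.20), and Glb1 was not called (0.18 ± 0.19, adjusted p = 0.529). The dividing-cell markers fell in the same crypts, and their part in the lower Lmnb1 was not tested. The number higher was 5 with DESeq2, 5 without Eed KO 440_1, 6 without WT 440_1 and 1 in run 440 alone. In organoids 7 passed and 4 were higher, against 13.5% of all genes. They were Igfbp7 (76 counts against 0 in WT organoids, adjusted p = 0.00334), Igfbp5 (323 counts against 1), Areg (1.44 ± 0.25) and Ccl20 (1.21 ± 0.29). Igfbp7 and Igfbp5 passed the filter only through Eed KO, where they were high, so 4 of 7 is not a share of the list. The number higher was 2 without Eed KO 385_1. Lmnb1 (-0.20 ± 0.12, adjusted p = 0.323) and Glb1 (0.35 ± 0.14, adjusted p = 0.146) were not called in organoids. Il6, Il1a, Il1b and the matrix metalloproteases of the list were among the genes not tested in crypts.

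Around the 7 genes, 30 other genes reported here had spans within 100 kb, and 21 were tested in crypts, with 6 higher and 1 lower in Eed KO, against 13.4% and 10.6% of all genes. The largest change was that of Trp53cor1, a p53-induced long noncoding RNA whose span ends 12018 bases from Cdkn1a. It passed the filter only through Eed KO crypts, where it was high. It had 114 counts over the 3 Eed KO crypts against 2 over the 3 WT crypts (log2 fold change 5.43 ± 0.69, adjusted p = 0.000907) and 0 in all 4 organoid libraries, where Cdkn1a was at 121.0 to 268 CPM. Farther out, Srsf3 (-0.41 ± 0.24, adjusted p = 0.265) and Stk38 (-0.30 ± 0.16, adjusted p = 0.224) were not called and Cpne5 was (2.04 ± 0.61, adjusted p = 0.0413, from 80 counts in Eed KO crypts against 17 in WT crypts).

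At the Ink4 locus Mtap, a methionine salvage enzyme 93390 bases from Cdkn2a, rose by 1.65 ± 0.33 in Eed KO crypts (adjusted p = 0.00685) and gave 0.03 ± 0.16 in organoids (adjusted p = 0.915). Its mean level was 46.3 CPM in Eed KO crypts, 38.9 in Ezh2 KO crypts and 15.7 in WT crypts. Ezh2 KO against WT crypts was not called (adjusted p = 0.588), so the rise is not shown to be particular to Eed KO. Gm12606, a long noncoding RNA 1068 bases from Cdkn2a, had 14 counts over the Eed KO crypts against none over the WT crypts, too few for the test.

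Next to Cdkn1b, the noncoding RNA Lockd, 3579 bases away, fell with it in crypts (-1.59 ± 0.28, adjusted p = 0.00414), at 1.84 CPM in Eed KO and 5.58 CPM in WT crypts. In organoids Lockd was at 2.13 CPM in Eed KO and 1.89 CPM in WT (0.16 ± 0.37, adjusted p = 0.819), while Cdkn1b was lower there too. In the imprinted region of Cdkn1c, Phlda2 rose by 2.58 ± 0.40 (adjusted p = 0.00213) and Slc22a18 by 0.88 ± 0.20 (adjusted p = 0.0129) in crypts, and neither was called in organoids (-0.38 and 0.01). Kcnq1, on the other side, gave 0.30 ± 0.24 (adjusted p = 0.422) in crypts. Near Cdkn2d, Slc44a2 rose in both sources, by 1.17 ± 0.25 in crypts and 1.30 ± 0.21 in organoids. In organoids Slc44a2 was the 1 call among 20 tested neighbours, where 13.5% of all genes were higher and 4.63% lower. With the block 5 of the 21 crypt neighbours were higher and none lower, and in run 440 alone 2 and none. Without Eed KO 385_2 the lower count was 2.

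**Figure D5:**
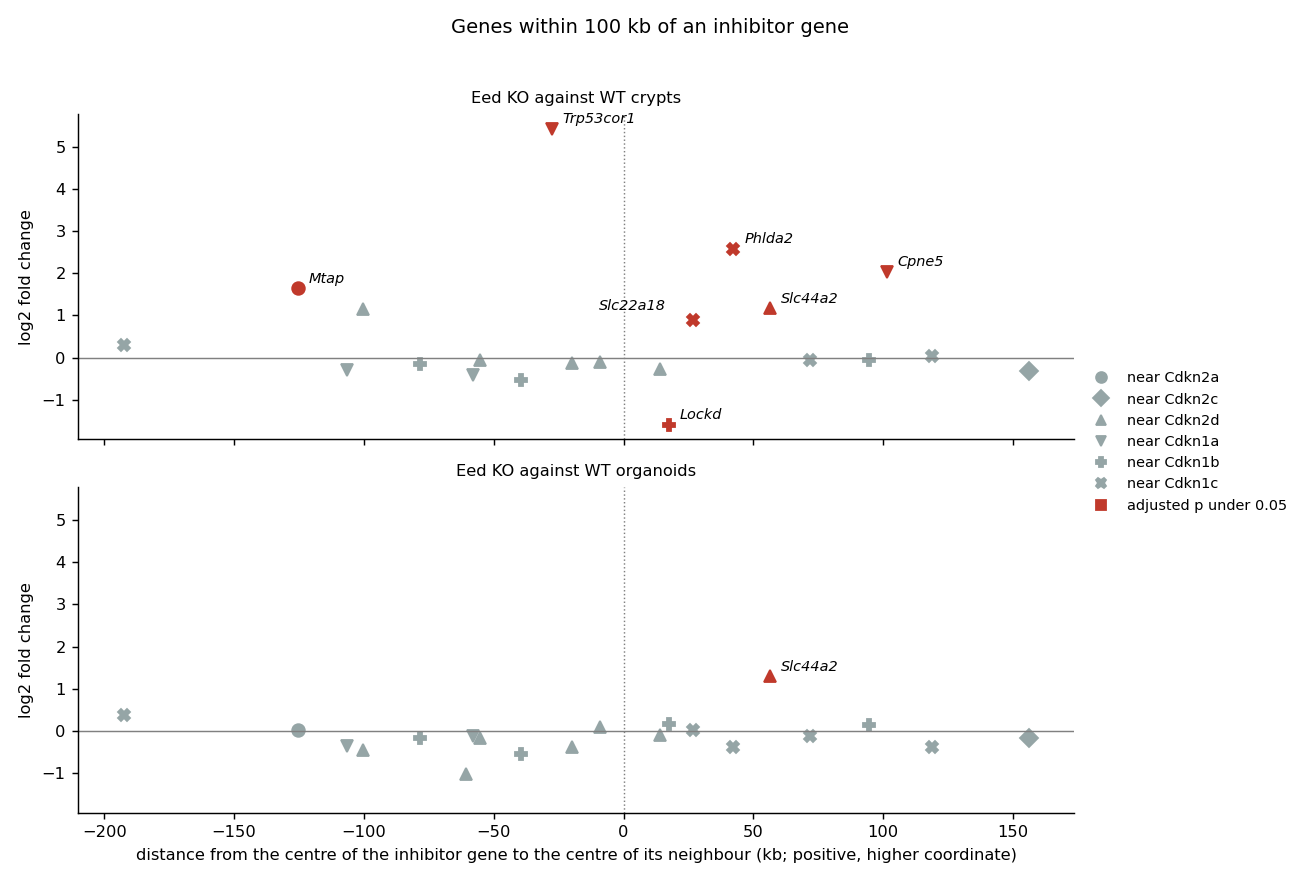
Log2 fold change of the tested genes within 100 kb of a member against the distance between gene centres in kb, for Eed KO against WT crypts (top) and organoids (bottom). Symbols give the member, red marks adjusted p under 0.05, and members are left out. In crypts 6 neighbours are called higher and 1, Lockd, lower, with Trp53cor1 the highest at 5.43, and in organoids Slc44a2 is the 1 call.

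The genes whose log2 CPM tracked each member most closely over the 13 libraries, out of 14761, are given as descriptions. The libraries fall into few groups and the points share their Eed status, so these values carry no p. For Cdkn2a they were the transcription factor Tfap2a (Pearson r = 0.996), Srcin1 (0.990) and the homeobox gene En2 (0.986). Tfap2a averaged 8.34 CPM in Eed KO crypts and 6.50 in Eed KO organoids, against 0 in WT crypts and 0.16 in WT organoids. For Cdkn1a they were the sulfatase Sulf2 (0.986, first by Spearman's rho too), Parm1 (0.978) and Lpcat4 (0.974). Sulf2 averaged 186 CPM in Eed KO crypts, 25.2 in Ezh2 KO crypts and 15.6 in WT crypts, and 206 in Eed KO organoids and 106 in WT organoids. The intermediate levels in Ezh2 KO crypts and WT organoids are the pattern of Cdkn1a.

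For Cdkn1b the closest was the RB relative Rbl2 (0.944), then Tigd4 (0.934) and the kinetochore gene Zwilch (0.922). For Cdkn2c they were Glud1 (0.981), the chromatin protein gene Hmgb3 (0.979) and Nmt1 (0.969), with Hmgb3 at 14.5 CPM in Eed KO crypts, 51.7 in Ezh2 KO crypts and 38.1 in WT crypts. Cdkn2b tracked Micalcl (0.9496), Fbxo25 (0.931) and the glutathione transferase Gsta1 (0.910), and Gsta1 separated sources, at 3.98 to 39.3 CPM in the crypt groups against 421 CPM in Eed KO organoids and 503 CPM in WT organoids. Cdkn1c tracked Degs1 (0.923), Npnt (0.912) and Dyrk3 (0.909). Cdkn2d tracked Hist2h2be (0.915), Snph (0.912) and Nudt16 (0.910).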

How the data were processed

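RNA was sequenced from strand-specific polyadenylated libraries, per the labels' protocols. Raw counts of reads per gene, not normalized, were deposited by the authors in 1 table for each sequencing run (23969 and 22634 genes). HTSeq, DESeq2, TopHat2 2.0.12 and Bowtie 0.12.9 are listed with the build GRCm38, per the submitters' processing notes, which give no roles. The strand setting of the counting is not stated in the sources used, so overlapping or antisense genes cannot be told apart and transcripts of 1 gene are summed. The annotation differed somewhat between runs. Libraries of both runs were joined on 21420 shared identifiers, and all columns were used.

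CPM were computed from the counts with TMM library sizes, and CPM per kilobase with merged exon lengths of GENCODE M21. Tests used edgeR 4.0.16 in R 4.3.3 (robust quasi-likelihood F test, minimum count 10, minimum total 15, Benjamini-Hochberg threshold 0.05), and were tested on simulated data. The 9 crypt libraries were fitted with group and run (14406 genes and 5 residual degrees of freedom). A separate fit held the 4 organoid libraries (12958 genes, 2 degrees of freedom). All 13 were fitted with group and run for differences between sources (14761 genes, 7 degrees of freedom). With few counts a ratio has an exact 95% counting interval, and a group at 0 has a floor of 3 counts. Alternatives were DESeq2 1.42.0, other size factors, count filters of none or 50, no run term, single runs, a replicate block and each library left out.

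The members and gene lists were chosen with earlier results of these data known. The named genes are the members, Eed and Ezh2, list genes past the threshold with the largest changes (up to 4 per list and comparison), neighbours within 100 kb and the 3 genes closest to each member by Pearson correlation of log2 CPM (prior count 2). Further genes of a list were named after their values were seen: Mdm2, Trp53, Sesn1, Cdk4, Cdk6, Sp1, Suz12, Jarid2, Ccnd1 in crypts, and Ccna2 and Rbl1 in organoids. The contrast of Eed KO crypts with Eed KO organoids was also added then. Same-numbered Eed KO and WT crypts had correlated deviations (0.166, 0.36 and 0.329 for 385_1, 385_2 and 440_1). They also share a run and the labels state no pairing, so these values do not establish it. The block treats them as paired and was run as an alternative. A neighbouring gene that stayed in the fits is not reported here, and the counts of neighbours leave it out.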

Additional observations from a re-analysis of the deposited data

Results flagged for a closer look

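The effect of Eed loss differed between crypts and organoids for Cdkn2a and Cdkn1a by the test of the difference itself. For Cdkn2a the log2 fold change in crypts minus that in organoids was 3.56 ± 0.64 (adjusted p = 0.0137), with 2459 counts in Eed KO crypts and 2 in WT crypts, and 1254 in Eed KO organoids and 15 in WT organoids. For Cdkn1a it was 2.03 ± 0.33 (adjusted p = 0.00808), with 286.5 CPM in Eed KO crypts and 38.9 CPM in WT crypts, and 258 CPM in Eed KO organoids and 143 CPM in WT organoids. Between Eed KO crypts and Eed KO organoids Cdkn2a differed by 0.17 ± 0.23 and Cdkn1a by -0.01 ± 0.24. Between WT crypts and WT organoids they differed by -3.39 ± 0.62 and -2.04 ± 0.24. The Cdkn2a call on the difference held in 17 of 18 alternative settings. Crypts and organoids also differ in time from induction, 6 weeks against 10 days. The organoid groups differ in strain label and sex pattern as well, and the part of these in either difference was not tested.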

How the results depend on the processing

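The number of members called kept within 1.5 times its value under all alternatives run, except in 2 comparisons. For the crypt and organoid difference it was 1 to 2 with single libraries left out (2 with all), and for Eed KO crypts against Eed KO organoids it was 0 to 2 and was 2 in run 385 alone (1 with all). With the replicate block, 4 members were called in Eed KO crypts and 3 in Eed KO organoids, the same as without it, and no member's call changed. The organoid numbers (correlation 0.259 for 2 pairs) do not establish pairing. With the block, 1046 genes were higher and 543 lower in crypts, against 1932 and 1531 without it. In organoids the block gave 2461 and 1441, against 1752 and 600, and a minimum count of 50 gave 1091 and 393. With settings other than leaving out 1 library, further counts over all genes that moved by over 1.5 times were these, as higher and lower. Eed KO against WT crypts gave 1538 and 730 without the run term, 1465 and 999 without Ezh2 KO libraries, and 741 and 476 in run 440 alone. Eed KO against Ezh2 KO crypts gave 2005 and 1861 with DESeq2, against 1726 and 1160. Ezh2 KO against WT crypts, 0 and 3, gave 36 and 34 with DESeq2, 3 and 5 without a count filter, 2 and 4 without the run term and 1 and 1 in run 440 alone. The crypt and organoid difference, 167 and 441, gave 365 and 832 with DESeq2 and 395 and 965 in run 385 alone. With single libraries left out, counts over all genes ran as follows. Eed KO against WT crypts gave 1289 to 2433 higher and 804 to 1939 lower, lowest without WT 385_2 and Eed KO 385_1. Eed KO against Ezh2 KO crypts gave 1132 to 1984 and 593 to 2209, and Ezh2 KO against WT crypts 0 to 254 and 1 to 259, highest without WT 440_1. Organoids gave 1084 to 1583 and 255 to 685, the crypt and organoid difference 67 to 380 and 81 to 907, and WT crypts against WT organoids 1315 to 2916 and 769 to 1787, with 1084, 255, 81, 1315 and 769 all without WT organoids 385_1. Eed KO crypts against Eed KO organoids, 2307 and 1814 with all, gave 1021 to 2939 and 913 to 2455, lowest without Eed KO organoids 385_1. Signs that changed were all of uncalled values. For Cdkn2b they were -0.21 in run 385 alone (Eed KO crypts) and 0.36 in run 440 alone (Ezh2 KO crypts against WT). With single libraries left out, Cdkn2b ran from -0.26 to 0.69 in Eed KO crypts, from -1.11 to 0.41 in Ezh2 KO crypts and from -0.66 to 0.98 between them. Cdkn2c ran from -0.033 to 0.35 in Ezh2 KO crypts, -0.34 to 0.065 in organoids and -0.0056 to 0.32 in WT crypts against WT organoids. Cdkn2d ran from -0.058 to 0.19 in Ezh2 KO crypts and -0.0088 to 0.29 for the crypt and organoid difference, where Cdkn1c ran from -0.073 to 0.73. Cdkn1a in Eed KO crypts against Eed KO organoids ran from -0.21 to 0.19 and was 0.0089 with a minimum count of 50. The cause of these changes was not tested. Where 1 library was left to an arm, it was assumed to vary like the other groups. Depth limits Cdkn2a in Ezh2 KO and WT crypts, where 2 counts each leave no usable fold.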
